A study of Rattus norvegicus with 23 samples.

Results

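The 5 genes with much higher array signals in the rat ventricles than in the left atrium and sinoatrial node, and with a little-known role in heart muscle, were examined across 6 cardiopulmonary regions. They were *Hpd*, *Fam81a*, *Trim50*, *2310002L09Rikl* and *Lbh*, that is, 5 of the 16544 genes named on the array, and each was found by the RefSeq accession of its probe. The 23 samples were labelled as left ventricle (LV, n = 4), right ventricle (RV, n = 3), left atrium (LA, n = 4), sinoatrial node (SA, n = 4), pulmonary vein (PV, n = 4) and pulmonary artery (PA, n = 4). All came from untreated male Wistar rats, 12 animals of 8 to 11 weeks, without any transgene or deletion. Each SA sample joined the tissue of 2 rats, and each LV mass was cut into 3 pieces that served as samples, so LV arrays may share an animal. The labels do not tie any other sample to an animal, so the p-values measure the spread between these samples. LV and RV together are called V (7 arrays).

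The genes were chosen by their array levels, on which V far exceeded LA and SA, so that difference is given as a description and was not tested. For these genes only the comparisons of LV with RV, PV with PA, and LA with SA were tested. The choice used none of these differences, but it did use the levels in LV, RV, LA and SA. It asked both LA and SA to be low, which limits how far they can differ. Only PV and PA lay outside the choice.

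The ventricle differs from the atrium in its sarcomere proteins, its ion channels and its metabolism, and genes known for this pattern include contractile proteins and transcription factors. Several of the genes described here are better known elsewhere. *Hpd* encodes 4-hydroxyphenylpyruvate dioxygenase, a liver enzyme of tyrosine breakdown that makes homogentisate. *Trim50* encodes an E3 ubiquitin ligase of the tripartite motif (TRIM) family, studied in the acid-secreting parietal cells of the stomach. *Fam81a* encodes a coiled-coil protein studied at synapses, and *2310002L09Rikl* a protein without an established function. *Lbh*, named for limb bud and heart, encodes a transcription cofactor and is itself a target gene of Wnt signalling, in which β-catenin switches on genes in the nucleus.

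Upstream sequence was available for *Hpd* and *2310002L09Rikl* in the RefSeq promoter set of build GRCr8 and is shown because both genes shared the ventricular pattern. Only bases outside the annotated gene are printed, 5′ to 3′ on the strand of the gene, which is 250 bases for *Hpd* (chr12:39041996-39042245, plus strand) and 195 bases for *2310002L09Rikl* (chr5:92752418-92752612, minus strand). Capitals would mark a match to a motif of a cardiac transcription factor.
Hpd: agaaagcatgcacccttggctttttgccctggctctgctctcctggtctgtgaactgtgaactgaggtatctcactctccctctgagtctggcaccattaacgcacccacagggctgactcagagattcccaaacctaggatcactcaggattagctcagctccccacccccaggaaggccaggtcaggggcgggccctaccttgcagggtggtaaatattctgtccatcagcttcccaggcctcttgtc
2310002L09Rikl: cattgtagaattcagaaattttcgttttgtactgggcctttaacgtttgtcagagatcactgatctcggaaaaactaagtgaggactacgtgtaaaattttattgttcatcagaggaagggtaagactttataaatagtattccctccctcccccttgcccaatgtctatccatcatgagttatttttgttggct
In all, 6 motifs were searched on both strands of the 250 bases before each start. Neither promoter held an exact match to any of them. Near matches were not counted: in *2310002L09Rikl*, ttataaatag differs from the MEF2 letters given below only in its first base. For scale, the same window was searched in all 33469 promoters of the set. The letters AGATAA, bound by GATA factors, were present in 10.3% of them. CATTCC, the core bound by TEAD factors, was present in 12.1%. ACANNTGT, bound by Iroquois factors, was present in 6.71%. A T-box core, GGTGTGA, was present in 3.22%, and the core of NKX2-5, CACTTNA, in 9.89%. The palindromic MEF2 motif, which opens with CTA and closes with its reverse complement after 4 free bases, was present in 3.41%.

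Levels are log2(signal + 1) of the deposited normalized signals, on which 1 unit is a doubling. An array's spot was called well above background when the scanner software flagged it so, and a region without any such array has only an upper bound. Outside the ventricles, *Hpd* was well above background on 0 of 16 arrays, *Fam81a* on 3, *Trim50* on 8, and *2310002L09Rikl* and *Lbh* on all 16. *Trim50*, *2310002L09Rikl* and *Lbh* were thus measured on at least 1 array of every region, and calling these 3 genes restricted to the ventricles would go against the data. *Fam81a* was measured on 1 array each of LA, SA and PV and on 0 of PA, so it is not called restricted either.

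*Hpd* read 7.75, 7.49, 8.12 and 7.66 on the LV arrays and 8.87, 8.31 and 8.88 on the RV arrays. Outside the ventricles it gave readings of 3.57 to 4.05 in LA, 3.52 to 4.45 in SA, 2.77 to 4.66 in PV and 3.04 to 3.56 in PA. All 7 V arrays lay above all 16 others. V was at least 13.99-fold above LA, at least 7.89-fold above SA, at least 9.58-fold above PV and at least 10.2-fold above PA. In these bounds, each array outside V was set to the higher of its own reading and the lowest signal well above background on that array. On the linear scale, that lowest signal was 13.5 to 21.3 on arrays in row 1 of a slide and 29.1 to 49.6 in row 2. Row 1 held 3 LA arrays and 1 SA array, and row 2 held 1 and 3. *Hpd* averaged 3.83 in LA and 3.88 in SA, so the unequal bounds do not rank the regions. The bounds hold for the deposited values: after normexp correction with quantile normalization, V lay 1.97 above the higher of LA and SA on the log2 scale, which is less than the 2.98 that the bound against SA corresponds to.

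*Fam81a* read 9.16, 8.63, 8.94 and 8.86 in LV and 9.69, 9.11 and 9.74 in RV. Outside the ventricles it was well above background on 3 of 16 arrays, namely 1 LA array at 5.05, 1 SA array at 4.93 and 1 PV array at 4.24. The highest reading outside V was 5.13, against a lowest V reading of 8.63. The mean of V was 30.6-fold that of LA, 21.5-fold that of SA and 21.9-fold that of PV, but only 1 of 4 arrays in each of these regions was well above background. With the other arrays raised to their detection limit as above, these values were 23.0-fold, 13.8-fold and 18.5-fold. After normexp correction with quantile normalization, V lay 2.53 above the higher of LA and SA on the log2 scale, against 4.43 in the deposited values. Against PA, without any such array, V was at least 20.6-fold higher.

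*Trim50* varied most among the ventricular arrays, with readings of 10.54, 9.78, 10.02 and 9.13 in LV and 9.73, 8.49 and 8.66 in RV (SD of V 0.75). Outside V, 8 of 16 arrays measured it well above background, namely 3 of 4 in LA, 1 of 4 in SA, 3 of 4 in PV and 1 of 4 in PA. The detection limit was higher in row 2 of a slide than in row 1, so these counts do not rank the regions. LA replicate 3, in row 1, was well above background at 4.05, whereas SA replicate 1, in row 2, was not at 5.61. The LA arrays read 5.28, 3.32, 4.05 and 4.79, the SA arrays 5.61, 5.52, 4.82 and 4.87, the PV arrays 6.15, 5.06, 5.74 and 4.57, and the PA arrays 4.63, 4.67, 4.25 and 3.73. Again the ventricles did not overlap with the rest, and the smallest gap was 2.34 between the lowest RV and the highest PV array. The mean of V was 34.7-fold that of LA, 19.4-fold that of SA, 17.1-fold that of PV and 35.8-fold that of PA. With dim arrays raised to their detection limit, these values were 24.3-fold, 15.6-fold, 16.2-fold and 24.0-fold. After normexp correction V lay 2.78 above the higher of LA and SA on the log2 scale, against 4.28 in the deposited values.

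*2310002L09Rikl* was the steadiest of the 5 genes in the ventricles, with 12.96, 12.75, 12.80 and 12.91 in LV and 12.89, 12.75 and 12.84 in RV (SD of V 0.08). LA read 9.93, 9.85, 9.76 and 10.37, SA 10.33, 10.05, 9.98 and 9.85, PV 9.79, 9.81, 10.04 and 10.15, and PA 9.47, 9.96, 9.71 and 9.65. The 4 regions outside V overlapped with each other. V was 7.27-fold above LA, 6.91-fold above SA, 7.44-fold above PV and 8.83-fold above PA.

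The array holds a second probe for *2310002L09Rikl*, which was dimmer on every array and on which V was again above all others. By this probe V was 4.10-fold above LA, 4.71-fold above SA, 4.62-fold above PV and 8.07-fold above PA. The probes thus gave unequal sizes against LA, SA and PV and similar sizes against PA.

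*Lbh* read 14.04, 13.73, 13.71 and 13.55 in LV and 14.03, 13.72 and 13.88 in RV. LA read 11.25, 11.22, 11.19 and 11.69, SA 11.63, 11.36, 11.44 and 11.06, PV 10.99, 10.92, 11.54 and 10.97, and PA 11.69, 11.64, 10.97 and 11.38. V was 5.55-fold above LA, 5.41-fold above SA, 6.52-fold above PV and 5.23-fold above PA, and the 4 regions outside V overlapped. PA, where the heart muscle markers were lowest, still carried *Lbh* and *2310002L09Rikl*. PA replicate 2 read 11.64 for *Lbh* and 9.96 for *2310002L09Rikl*. On that array *Mybpc3* (cardiac myosin-binding protein C) read 4.25, against 15.41 to 15.85 in V. The other listed heart muscle markers read higher there, with 13.09 for *Tnnt2*, 9.15 for *Tnni3*, 16.62 for *Actc1* and 9.04 for *Ryr2*. *Actc1* and *Ryr2* were slightly lower in PA replicate 3 (16.43 and 9.01). In tissue samples, fewer cells of a type and less RNA per cell cannot be told apart.

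**Figure D1:**
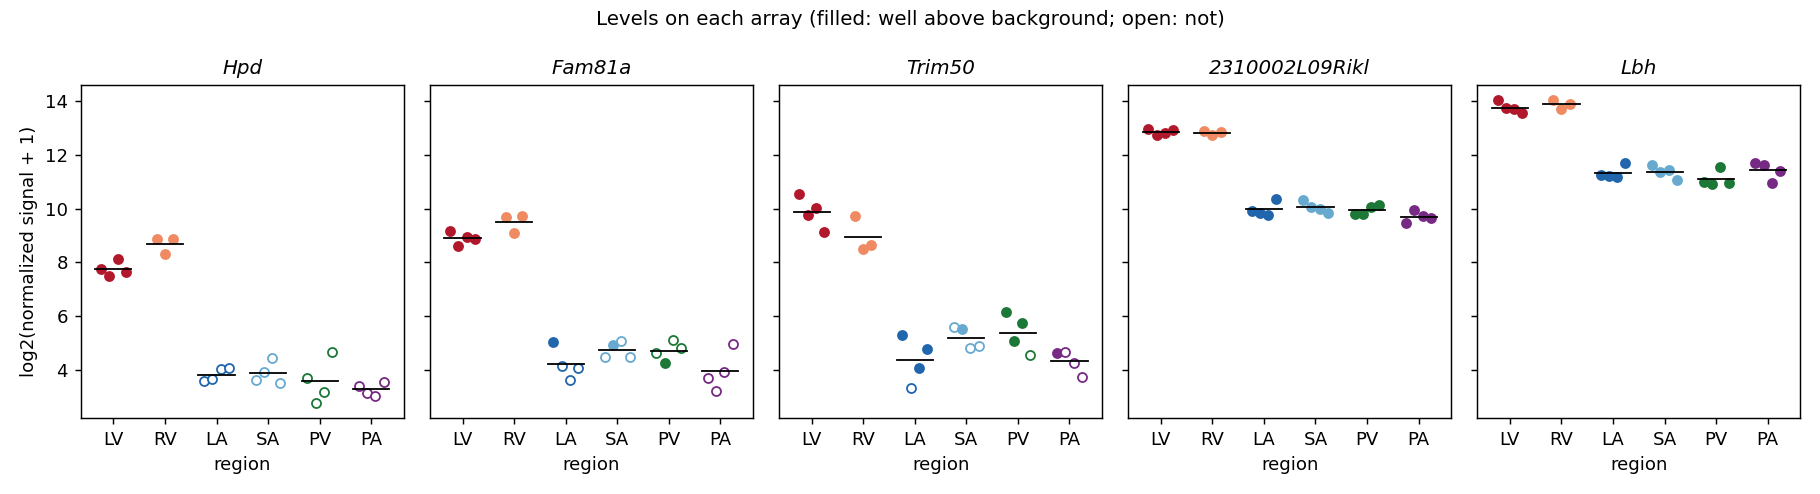
Log2(normalized signal + 1) of the 5 genes on each of 23 arrays by region, with black lines at the means of each region, filled points for arrays well above background and open points for the others. The 7 V arrays lie above the 16 others in all 5 panels, and *Hpd* has open points only outside V, whereas *2310002L09Rikl* and *Lbh* have filled points in every region.

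In order of mean level, RV led for *Hpd*, *Fam81a* and *Lbh*, and LV led for *Trim50* and *2310002L09Rikl*. The arrays of both ventricles overlapped for 4 genes and not for *Hpd*. Below the ventricles, each region overlapped with the next in order for all 5 genes. All 7 V arrays above all 16 others was found for 778 of 16089 genes (4.84%), a pattern that the choice of these 5 genes used in part.

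LV was then compared with RV, a contrast that asks whether the level differs between the chambers. A high signal in the ventricles was part of the choice of genes. With 4 against 3 arrays, a difference that does not pass does not show equal levels. In limma's moderated test over 16089 genes, 0 of the 5 genes passed a Benjamini-Hochberg adjusted p of 0.05, beside 84 of all genes (0.522%). At an unadjusted p below 0.05 the counts were 1 of the 5 genes, *Hpd*, and 1727 of all genes (10.7%). *Hpd* was 1.91-fold lower in LV than in RV (log2 difference -0.93, SE 0.32, adjusted p = 0.241), and each LV array lay below each RV array. An absence of overlap between LV and RV, in either direction, was found for 1659 genes (10.3%), and the exact two-sided permutation p for *Hpd* was 0.0286, the smallest that 4 against 3 arrays allow. The call depended on the treatment of low signals: *Hpd* passed with a pseudocount of 16 (-0.89, adjusted p = 0.0280) and after normexp background correction with quantile normalization (-0.81, adjusted p = 0.00266), and over its other alternatives the adjusted p was 0.107 to 0.505.

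*Fam81a* leaned the same way (-0.62, SE 0.35, adjusted p = 0.567) and passed only after normexp correction (-0.65, adjusted p = 0.0145). *Trim50* had a higher mean in LV than in RV (0.90, SE 0.46, adjusted p = 0.508), with overlapping arrays. For *2310002L09Rikl* the difference was 0.03 (SE 0.15, adjusted p = 0.977) and for *Lbh* -0.12 (SE 0.19, adjusted p = 0.911), both smaller than their standard errors.

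Arrays lay on 3 slides and in 2 rows of a slide, and the row went with the share of probes well above background, which was 72.6 to 79.8% in row 1 and 58.6 to 69.4% in row 2. For *Hpd*, LV minus RV was -0.94 within row 1, -0.74 within row 2, -0.47 within slide 2 and -1.26 within slide 3. With the row as a block the difference was -0.93 (adjusted p = 0.263), and with the slide as a block it was -0.90 (adjusted p = 0.308). RV replicate 2, in row 2, gave the lowest RV reading for each of the 5 genes. The atrial markers were mixed on that array. *Mybphl*, an atrial sarcomere gene, read 9.09 there, against 6.49 and 6.63 on the other RV arrays. *Sln*, *Myl7* and *Nppa* were also highest there among the RV arrays, whereas *Kcnj3* and *Myl4* were lowest there and *Bmp10* lay between. Without that array the *Hpd* difference was -1.12 (adjusted p = 0.277).

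PV was compared with PA, since the rat pulmonary vein carries a sleeve of atrial-like heart muscle and the pulmonary artery does not. Of the 5 genes, 1 passed, beside 8591 of all genes (53.4%). *Trim50* was 2.09-fold higher in PV than in PA (log2 difference 1.06, SE 0.43, adjusted p = 0.0426), with overlapping arrays and an exact two-sided permutation p of 0.0857 for 4 against 4 arrays. Most PA readings were dim, and with the readings of dim arrays raised to the detection limit of the same array, the difference was 0.57. The call was lost without PV replicate 1 (0.80, adjusted p = 0.145), PV replicate 3 (0.94, adjusted p = 0.101), PA replicate 3 (1.04, adjusted p = 0.0780) or PA replicate 4 (0.87, adjusted p = 0.124), with a pseudocount of 16 (0.71, adjusted p = 0.0664) and after normexp correction (0.40, adjusted p = 0.132). It passed with the row as a block (1.19, adjusted p = 0.0164) and the slide as a block (1.12, adjusted p = 0.0424). Within slides the difference was 1.87, 0.32 and 1.09, and within rows 0.62 and 1.29.

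*Fam81a* in PV and PA lay close to background on both sides (adjusted p = 0.0559). Its difference is thus between readings near background and is not a measured fold. It passed in 7 of 37 alternatives, among them without PA replicate 4 (adjusted p = 0.00369), PV replicate 2 (adjusted p = 0.0344), LA replicate 1 (adjusted p = 0.0352) or LA replicate 3 (adjusted p = 0.0489). The difference of 0.75 (SE 0.32) fell to 0.15 with dim arrays raised to their detection limit and to 0.14 after normexp correction (adjusted p = 0.367). Further, no PV or PA array measured *Hpd* well above background. *2310002L09Rikl* differed by 0.25 (SE 0.13, adjusted p = 0.133) and *Lbh* by -0.32 (SE 0.18, adjusted p = 0.143), that is, the mean of *Lbh* was higher in the artery. Without PV replicate 3 the *Lbh* difference passed (-0.46, adjusted p = 0.0314), as it did without PA replicate 3 (-0.47, adjusted p = 0.0292). With the slide as a block it was -0.25 (adjusted p = 0.145), and within slides 1, 2 and 3 it was -0.43, 0.0022 and -0.12. The mean of both *2310002L09Rikl* probes gave 0.53 (adjusted p = 0.0259).

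LA against SA gave 0 called among the 5 genes, beside 2460 of all genes (15.3%), and at an unadjusted p below 0.05 it also gave 0 of the 5 genes. Both regions were low by the choice of genes, which limits what this count can show. limma's differences were -0.84 for *Trim50* (SE 0.43, adjusted p = 0.215), -0.51 for *Fam81a* (SE 0.32, adjusted p = 0.344), -0.07 for *2310002L09Rikl* (SE 0.13, adjusted p = 0.787) and -0.04 for *Lbh* (SE 0.18, adjusted p = 0.927). In both regions, 0 arrays measured *Hpd* well above background. In LA and SA together, *Trim50* was measured well above background on 4 of 8 arrays and *Fam81a* on 2 of 8. With dim arrays raised to their detection limit, *Trim50* was -0.64 and *Fam81a* -0.74. That limit was higher in row 2, which held 3 of the 4 SA arrays and 1 of the 4 LA arrays. These values thus mix the region with the row. Otherwise, *Trim50* was -0.50 without LA replicate 2, -1.15 without LA replicate 1 (adjusted p = 0.0977), -1.10 with the row as a block (adjusted p = 0.0852) or with quantile normalization (adjusted p = 0.120) and -0.24 after normexp correction, and *Fam81a* was -0.31 without LA replicate 3, -0.78 without LA replicate 1 and -0.05 after normexp correction. None of the 5 genes was called between LA and SA under any of the 37 alternatives.

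**Figure D2:**
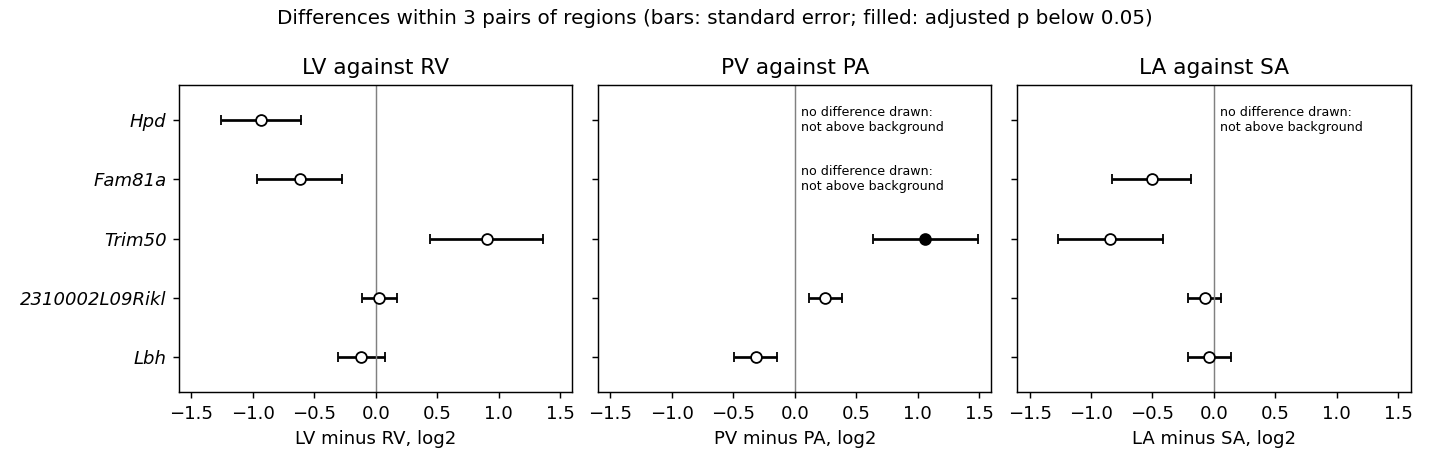
Log2 difference of each gene for LV minus RV, PV minus PA and LA minus SA, with the standard error of the fit as bars and filled points for an adjusted p below 0.05; no difference is drawn where a region had no array well above background. *Trim50* in PV against PA, at 1.06, is the only filled point, and *Hpd* at -0.93 is the lowest in LV against RV.

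The other enzymes of phenylalanine and tyrosine breakdown were then compared between V and the atrial regions. Of 10 listed enzymes, 9 were tested for V against the mean of LA and SA, and 4 were higher, 2 were lower and 3 did not pass, beside 19.7% of all genes higher and 16.8% lower. The median difference of the list was 0.23, against 0.07 over all genes. The enzymes next to *Hpd* in the pathway were hardly measured: *Tat*, the tyrosine aminotransferase that makes the substrate of *Hpd*, was well above background on 0 of 23 arrays, and *Hgd*, the homogentisate dioxygenase that takes its product, on 1.

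The largest difference of the list belonged to *Hpdl*, a relative of *Hpd* placed in mitochondria and in coenzyme Q synthesis. *Hpdl* averaged 9.90 in LV and 10.03 in RV against 7.98 in LA, 8.84 in SA, 8.25 in PV and 6.56 in PA, and it was 1.56 higher in V than in LA and SA on the log2 scale (SE 0.16, adjusted p = 2.74e-07). The aminotransferases *Got2* (0.78, SE 0.07, adjusted p = 5.85e-08) and *Got1* (0.71, SE 0.07, adjusted p = 6.48e-08), which serve the malate-aspartate shuttle as well, were higher in V, as was *Gstz1*, the maleylacetoacetate isomerase (0.58, SE 0.09, adjusted p = 2.44e-05). *Fah*, the fumarylacetoacetate hydrolase that ends the pathway, was lower in V (-0.64, SE 0.11, adjusted p = 8.52e-05), as was *Pcbd1*, which recycles a pterin cofactor (-0.39, SE 0.12, adjusted p = 0.0109). However, *Pcbd1* averaged 9.70 in LV and 9.79 in RV against 9.69 in SA and 10.58 in LA, so V was below LA but not below SA. *Qdpr*, another enzyme of that cofactor, did not pass (-0.01, SE 0.06, adjusted p = 0.888). Liver markers were checked because *Hpd* is a liver gene: *Alb* (albumin) read 2.66 to 3.74 on the 7 V arrays and 2.29 to 3.97 on the others. The summed signal of 5 liver markers was 11969 to 12972 in LV, 5405 to 6647 in RV, 4837 to 10530 in LA and SA, 4224 to 7295 in PV and 207 to 422 in PA. *Ttr* (transthyretin) made up most of these sums outside PA, with 12.36 to 13.65 in V, 12.19 to 13.34 in LA and SA and 4.25 to 6.63 in PA. LV was thus above LA and SA, whereas RV, where *Hpd* was highest, overlapped with them. The part of these markers in the *Hpd* pattern was not tested.

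A noncoding gene over the start of *Hpd* had its own pattern. In RefSeq on GRCr8, *LOC102547495* is a long noncoding RNA gene on the strand opposite to *Hpd*, its annotated interval covers the first 466 bases of *Hpd*, and the *Hpd* promoter printed above lies inside it. It was found among the 2 nearest tested genes on each side of each member, a choice made after the data had been seen. Its LV arrays read 7.42, 7.18, 7.22 and 6.82 and its RV arrays 7.26, 6.24 and 7.18, against 4.41 to 5.68 in LA and 3.91 to 5.21 in SA, and the difference was 2.06 (SE 0.28, adjusted p = 8.28e-06). LA was well above background on 3 of 4 arrays and SA on 1 of 4. The detection limit was higher in row 2 of a slide, so these counts do not rank LA and SA. Unlike *Hpd*, *LOC102547495* was well above background on all 4 PA arrays (5.96, 6.66, 6.76 and 7.73) and overlapped there with V. It was lower in PV than in PA by -1.72 (SE 0.38, adjusted p = 0.000768).

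**Figure D3:**
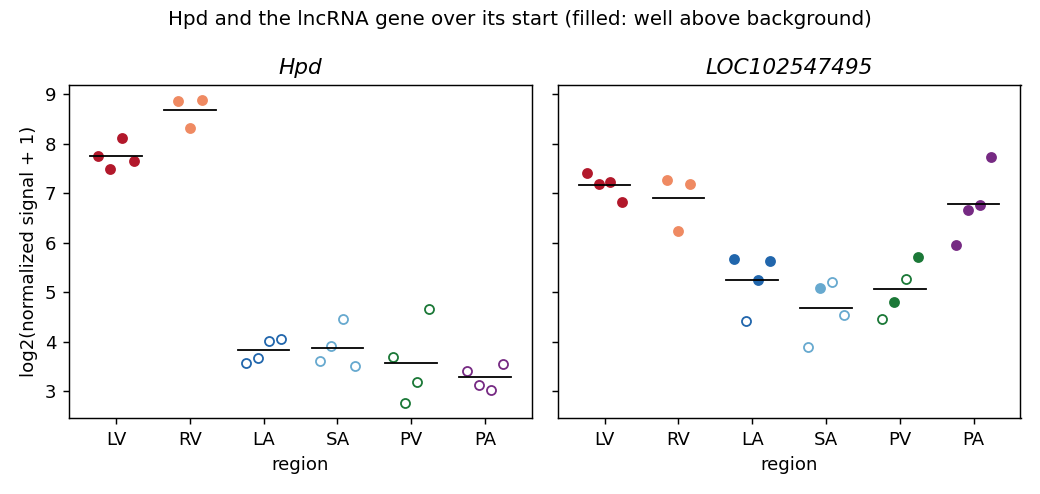
Log2(normalized signal + 1) of *Hpd* and of the overlapping opposite-strand gene *LOC102547495* on each of 23 arrays by region, with lines at the means and filled points for arrays well above background. Both are high in V, and only *LOC102547495* is also high in PA, with a highest array at 7.73.

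Of the 20 neighbouring genes, 5 were higher in V than in LA and SA, 3 were lower and 12 did not pass (25.0% and 15.0%, beside 19.7% and 16.8% of all genes). *LOC102547495* had the largest difference, and the other 4 higher neighbours, *Psmd9*, *Myo1e*, *Dmac1* and *Capn13*, differed by 0.21, 0.41, 0.28 and 0.67. Around *Trim50*, *Pom121* was lower (-0.27, SE 0.07, adjusted p = 0.00379), and *Nsun5*, *Fkbp6* and *Fzd9* did not pass. Near *Lbh*, *Ypel5* was lower in V (-0.43, SE 0.08, adjusted p = 0.000149), as was *Galnt14* (-0.88, SE 0.29, adjusted p = 0.0208), which was well above background on only 6 arrays.

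TRIM genes encode ubiquitin ligases with a RING, B-box and coiled-coil module, and several belong to striated muscle. Apart from *Trim50*, 45 numbered TRIM genes were on the array and 43 were tested; 8 were higher in V than in LA and SA, 4 were lower and 31 did not pass, that is, 18.6% higher and 9.30% lower beside 19.7% and 16.8% of all genes, with a median difference of 0.08 beside 0.07 over all genes. *Trim72*, which encodes the membrane repair protein MG53, averaged 12.11 in LV and 11.88 in RV against 9.95 in LA, 11.18 in SA and 4.58 in PA, and was higher in V (1.43, SE 0.23, adjusted p = 6.39e-05). *Trim2* was higher as well (1.05, SE 0.13, adjusted p = 3.34e-06), and so was *Trim71* (1.22, SE 0.37, adjusted p = 0.0133), although *Trim71* was well above background on only 3 arrays. The muscle RING-finger ligases did not pass: *Trim63* (MuRF1) differed by -0.12 (adjusted p = 0.526), *Trim55* (MuRF2) by -0.25 (adjusted p = 0.129) and *Trim54* (MuRF3) by -0.09 (adjusted p = 0.730).

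The widest TRIM difference ran opposite to *Trim50*. *Trim10*, a gene known from red cell precursors, averaged 6.20 in LV and 6.60 in RV against 8.87 in LA, 8.67 in SA and 8.69 in PV, and was lower in V by -2.37 (SE 0.19, adjusted p = 5.85e-09). The erythroid markers *Hbb* and *Alas2* were also lower in V than in LA and SA: their summed signal was 123 to 366 in V and 632 to 3641 in LA and SA. In PA, where *Trim10* averaged 6.23, the sum was 416 to 2170 and thus above all V arrays. The part of these markers in the *Trim10* result was not tested. *Trim35* (-0.42, SE 0.08, adjusted p = 0.000329) and *Trim32* (-0.27, SE 0.07, adjusted p = 0.00460) were also lower. The 2 parietal cell markers, the proton pump genes *Atp4a* and *Atp4b*, had a summed signal of 287 to 1113 in V and 191 to 670 in LA and SA. *Atp4a* alone read 7.91 to 8.95 on the V arrays and at most 7.73 on the 16 others. The part of these markers in the *Trim50* pattern was not tested.

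**Figure D4:**
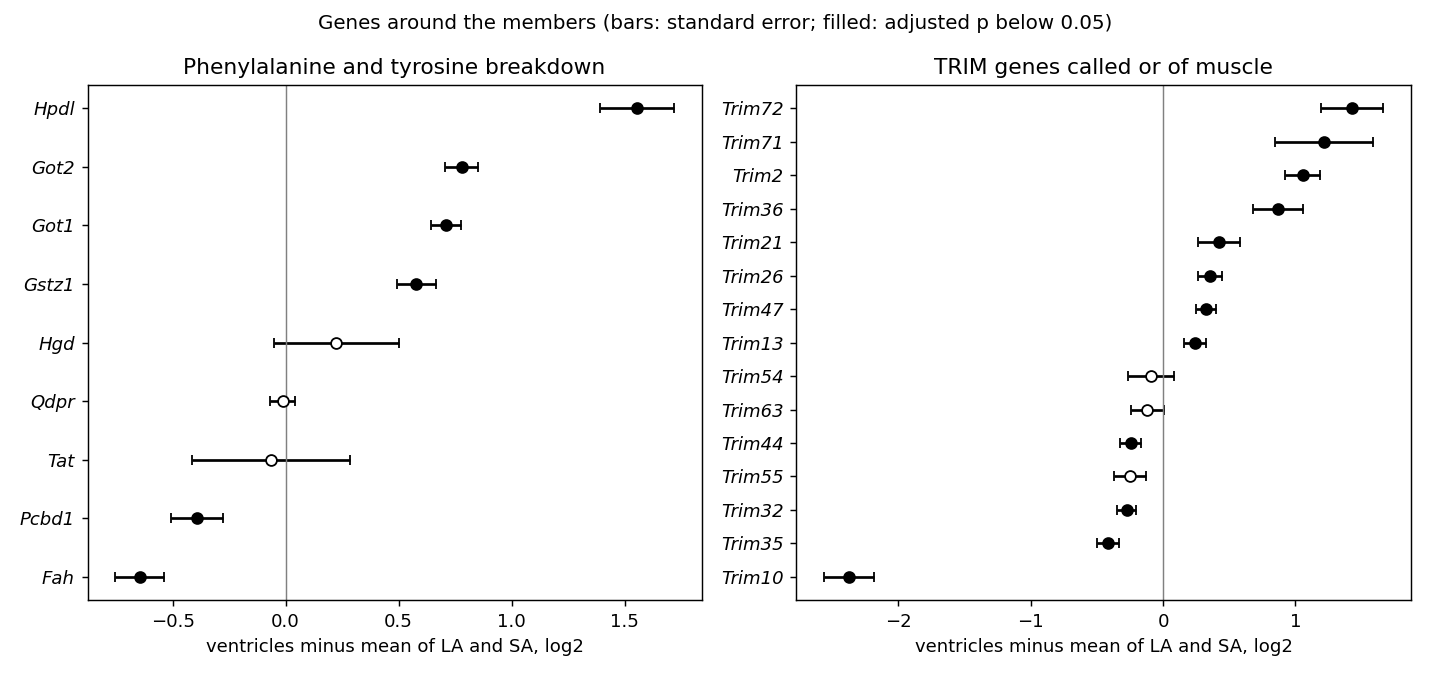
Log2 difference between V and the mean of LA and SA, with the standard error of the fit as bars and filled points for an adjusted p below 0.05, for 9 enzymes of phenylalanine and tyrosine breakdown and for the called and muscle-type TRIM genes. *Hpdl* at 1.56 and *Trim72* at 1.43 are the highest in their panels, and *Trim10* at -2.37 is the lowest.

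Next, the target genes of Wnt signalling, of which *Lbh* is one, were examined. Of 14 listed targets, 12 were tested, 2 were higher in V than in LA and SA, 2 were lower and 8 did not pass, that is, 16.7% in each direction beside 19.7% and 16.8% of all genes, with a median difference of 0.27 beside 0.07 over all genes. *Ccnd1* (cyclin D1) was higher (1.19, SE 0.14, adjusted p = 9.83e-07) and *Myc* was higher (0.54, SE 0.20, adjusted p = 0.0386). *Notum*, which inactivates Wnt ligands, was lower (-2.52, SE 0.41, adjusted p = 5.72e-05), and so was *Nkd1*, a feedback inhibitor of the pathway (-0.65, SE 0.19, adjusted p = 0.0111). *Axin2*, the most widely used readout of the pathway, did not pass (-0.64, SE 0.29, adjusted p = 0.0916). *Lbhd2*, the tested gene with a domain like that of *Lbh*, did not pass either (0.31, SE 0.17, adjusted p = 0.154). None of the tested tyrosine, TRIM, Wnt or *Lbh*-related genes was called between LV and RV, beside 0.522% of all genes.

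The genes most like each member were ranked by Pearson r over the 23 arrays among 11455 genes well above background on all 7 V arrays. Because the members were chosen for the split of V from LA and SA, a high r mostly restates that split. *Zmiz2*, a transcriptional coregulator, and *Tasp1*, a protease that cleaves nuclear factors, were among the nearest 5 genes of all members except *Trim50*. *Zmiz2* gave an r of 0.993 with *2310002L09Rikl*, the highest found, and averaged 15.43 (SD 0.18, n = 7) in V and 11.09 (SD 0.23, n = 16) elsewhere. *Tasp1* gave an r of 0.989 with *2310002L09Rikl* and averaged 11.997 (SD 0.15) in V and 9.72 (SD 0.15) elsewhere.

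Members were also among each other's nearest genes, with an r of 0.971 between *Hpd* and *Fam81a*, 0.973 between *Hpd* and *2310002L09Rikl* and 0.977 between *Lbh* and *2310002L09Rikl*. *Fam81a* was followed by *Carmil3*, an actin regulator, at 0.975, and *Hpd* by *Efhd1*, a mitochondrial calcium-binding protein, at 0.965. *Trim50* stood closest to *Tmem120a* (0.962) and *RT1-DMb* (0.960), and its lowest pairing within the 5 genes was 0.909 with *Hpd*.

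The labels of the regions were checked against markers. *Myl2*, the ventricular myosin light chain, read 18.76 to 19.22 in V and 9.44 to 16.27 elsewhere, whereas *Sln*, which encodes the atrial protein sarcolipin, read 6.44 to 10.66 in V and 17.45 to 18.29 in LA, SA and PV. *Myl3* and *Strit1* of the ventricular list were also higher on all V arrays than on all others, but not every marker separated the regions. The ventricular *Hey2* was highest in PA (8.39 to 8.64, against 5.32 to 6.41 in V), *Myh7* overlapped between V (18.37 to 18.87) and LA (18.12 to 18.42), and so did the atrial *Myl4* (17.59 to 18.00 in V and 17.43 to 17.94 in LA). Among endothelial markers, the summed signal of 4 markers was 60009 to 72659 in V, 32644 to 42488 in LA and SA and 22730 to 43872 in PV and PA. *Vwf*, *Kdr* and *Cdh5* were higher on all V arrays than on all LA and SA arrays, whereas *Pecam1* overlapped (13.22 to 13.48 in V, 12.88 to 13.92 in LA and SA). The macrophage marker *Cd68* (10.15 to 10.53 in V, at most 9.85 elsewhere) and the lung epithelial marker *Sftpc* (7.39 to 8.99 in V, at most 7.22 elsewhere) were higher on all V arrays as well, but they were the only ones of their lists of 3 and 4 markers to be so. The macrophage *Csf1r* and *Cd163* and the lung *Sftpb*, *Sftpa1* and *Scgb1a1* overlapped with other regions, as did the summed signals of both lists (2597 to 3567 in V and 1739 to 2833 elsewhere for macrophages, 364 to 901 and 134.5 to 457 for lung epithelium). The part of these markers in the pattern of the 5 genes was not tested. No array had a saturated spot.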

How the data were processed

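Total RNA of each sample was labelled with Cy3 and hybridized to 1 single-colour Agilent rat array, read with Agilent Feature Extraction 11.0.1.1 per the submitters' processing notes. The authors deposited normalized signal intensity values on a linear scale. Set against the scanner files, each array's column is the deposited background-subtracted intensity times 1 factor, which brings the 90th percentile to a common level. The number of arrays limits the precision.

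Probes were named through their RefSeq accession (21047 of 45440 probes, 16544 genes), values were taken as log2(x + 1), and the highest probe of a gene was used on each array. Genes above 4 on at least 1 array were tested with limma 3.58.1 (R 4.3.3) on 23 arrays with 6 region means, and p-values were adjusted over 16089 genes by Benjamini and Hochberg. The fit was tested on simulated data. Alternatives were other scalings of the scanner intensity, normexp correction, another pseudocount, filters and probe rules, the arrays compared alone, slide, array row or replicate number as a block, a variance trend, and each array left out. The members and lists were chosen with earlier results of these data known. Named genes were the 5 members, the 5 genes nearest to each by Pearson r, and the listed pathway, TRIM and Wnt genes (of TRIM genes, the 3 largest called changes each way and 4 muscle genes). *Irx4* and *Pla2g2d* (for *Lbh*), and *Smap2* and *Exoc3l4* (for *Trim50*), complete the nearest genes. A listed enzyme and a gene among the nearest are not reported here.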

Additional observations from a re-analysis of the deposited data

Results flagged for a closer look

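For 2 of 25 groups of 4 arrays, 1 array of *Lbh* stood far from the others; chance alone gives about 1 in 20 such groups. In LA, replicate 4 read 11.69 for *Lbh* and the other arrays 11.19 to 11.25. In PV, replicate 3 read 11.54 and the other arrays 10.92 to 10.99. Both arrays lay on slide 3, as did PA replicates 1 and 2 and LV replicate 1, which gave the highest *Lbh* readings of PA (11.69 and 11.64) and LV (14.04). The highest readings of RV (14.03) and SA (11.63) came from slides 2 and 1. The part of the slide in these readings was not tested.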

How the results depend on the processing

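Of the 5 genes, the number called between LV and RV was 0, except for 2 after normexp correction and 1 with a pseudocount of 16. Between PV and PA it was 1, with 2 for the scanner intensity at the 75th percentile or quantile-normalized, for the mean of the probes and for a filter on genes well above background, 0 after normexp correction or with a pseudocount of 16, and 0 to 2 with 1 array left out. Between LA and SA it stayed 0. All genes called between LV and RV numbered 84, against 137 with the filter on genes well above background, 144 with a variance trend, 12 with the ventricular arrays alone, and 40 to 105 with 1 array left out. Small differences changed sign: *2310002L09Rikl* in LV against RV was -0.035 after normexp correction, -0.063 for the mean of the probes and -0.0081 to 0.066 with 1 array left out; in LA against SA it was 0.062 for the mean of the probes and -0.21 to 0.018 with 1 array left out, and *Lbh* there was -0.15 to 0.047. The cause was not tested. The size of V above the higher of LA and SA ranged from 1.97 to 4.39 for *Hpd* (log2) over 23 alternatives; its direction was fixed by the choice of genes. With a replicate block, *Hpd* in LV against RV was -1.01 (adjusted p = 0.198), and no call changed; same-numbered samples did not deviate together (median r -0.04 over 55 pairs). Readings near background limit *Hpd*, *Fam81a* and *Trim50* outside V. Dim arrays at their detection limit were an alternative chosen after seeing the data.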
